A study of Mus musculus with 6 samples.

Results

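The genes of cholesterol synthesis and of its control by SREBP were followed in astrocytes sorted from hyperglycemic and normoglycemic mice. They comprise 31 of the 45777 genes in the expression table, and were chosen by gene symbol and selected on a read count above 0 in all 6 samples, which all 31 met. Their lowest count in any sample was 470 and their highest 66640, so none lay near that limit. The pathway itself was picked because earlier results on these samples had shown it lower in the STZ group, so its direction between the groups is given as a description. Gene coordinates are those of RefSeq in GRCm38.

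The astrocytes came from male Aldh1l1-CreERT2; tdTomato fl/fl mice on a C57BL/6 background, in which tamoxifen (75 mg/kg for 5 days), given to both groups, turns on the red protein tdTomato in cells that express the astrocyte gene Aldh1l1. At 8 weeks of age the mice were injected once, either with 150 mg/kg streptozotocin (STZ), which kills the insulin-making beta cells of the pancreas, or with citrate buffer (vehicle). Of the STZ-treated mice, those above a set blood glucose level 5 days later were kept. Brains were taken 21 days after the injection, tdTomato-positive cells were sorted, and each of the 3 samples per group pooled cells of 3 mice. GEO lists the genotype of both groups as WT.

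Cells build cholesterol from acetyl-CoA in the endoplasmic reticulum. The mevalonate steps make isoprene units, which are joined to farnesyl diphosphate and then to squalene, and squalene is oxidized, closed into the ring compound lanosterol and trimmed step by step to cholesterol. SREBP2, made by Srebf2, is the transcription factor that turns these enzymes on together: when sterols are scarce, Scap escorts it to the Golgi for cleavage, and when sterols are plentiful the Insig proteins hold both in the endoplasmic reticulum. In the adult brain, which takes up little cholesterol from blood, astrocytes are a main site of synthesis and pass cholesterol to neurons.

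The windows upstream of the genes were read for the elements through which SREBP2 is known to act. RefSeq windows of GRCm38.p6, from 250 bases before to 50 after each annotated start, were at hand for 26 of the 31 genes, some with more than 1 start. Those of Hmgcs1, Insig1 and Dhcr7 (for Dhcr7, a pair that do not overlap) are shown because these genes differed most between the groups, and those of Tm7sf2 and Lbr because both encode enzymes of the same step. Capitals mark the sterol regulatory element TCACNCCAC and the NF-Y motif CCAAT on either strand, so that CCAAT on the opposite strand reads ATTGG.
Hmgcs1, chr13:119690101-119690400, plus strand: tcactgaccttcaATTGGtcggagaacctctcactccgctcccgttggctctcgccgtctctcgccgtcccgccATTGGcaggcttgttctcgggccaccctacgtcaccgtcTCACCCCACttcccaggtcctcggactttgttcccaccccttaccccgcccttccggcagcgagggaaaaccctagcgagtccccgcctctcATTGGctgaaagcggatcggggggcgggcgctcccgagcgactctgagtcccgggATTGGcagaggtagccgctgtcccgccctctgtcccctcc
Insig1, chr5:28071162-28071461, plus strand: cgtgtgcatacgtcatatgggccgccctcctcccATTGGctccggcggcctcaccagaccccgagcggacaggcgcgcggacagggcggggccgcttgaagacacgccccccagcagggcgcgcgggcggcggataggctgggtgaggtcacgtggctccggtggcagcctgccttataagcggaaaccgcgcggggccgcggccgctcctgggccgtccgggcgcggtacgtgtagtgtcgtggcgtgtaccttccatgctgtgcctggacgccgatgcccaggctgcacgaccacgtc
Dhcr7, chr7:143822917-143823216, plus strand: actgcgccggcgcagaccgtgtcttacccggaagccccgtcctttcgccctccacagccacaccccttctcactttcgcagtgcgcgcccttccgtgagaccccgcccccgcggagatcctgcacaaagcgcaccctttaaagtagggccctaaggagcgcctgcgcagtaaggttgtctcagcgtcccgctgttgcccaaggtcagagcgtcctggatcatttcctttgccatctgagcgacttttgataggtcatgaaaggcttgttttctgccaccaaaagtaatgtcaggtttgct
Dhcr7, chr7:143829964-143830263, plus strand: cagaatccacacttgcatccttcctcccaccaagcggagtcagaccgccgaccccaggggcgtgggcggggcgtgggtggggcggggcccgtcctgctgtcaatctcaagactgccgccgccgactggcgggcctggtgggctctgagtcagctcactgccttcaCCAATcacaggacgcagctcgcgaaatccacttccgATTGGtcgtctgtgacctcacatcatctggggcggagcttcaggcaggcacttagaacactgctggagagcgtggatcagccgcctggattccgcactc
Tm7sf2, chr19:6067801-6068100, minus strand: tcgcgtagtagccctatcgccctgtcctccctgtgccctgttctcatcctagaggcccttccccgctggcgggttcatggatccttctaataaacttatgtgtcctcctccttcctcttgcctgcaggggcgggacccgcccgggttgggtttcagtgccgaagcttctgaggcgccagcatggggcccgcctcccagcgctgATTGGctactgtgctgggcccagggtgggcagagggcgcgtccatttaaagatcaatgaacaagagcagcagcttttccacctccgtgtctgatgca
Lbr, chr1:181842352-181842651, minus strand: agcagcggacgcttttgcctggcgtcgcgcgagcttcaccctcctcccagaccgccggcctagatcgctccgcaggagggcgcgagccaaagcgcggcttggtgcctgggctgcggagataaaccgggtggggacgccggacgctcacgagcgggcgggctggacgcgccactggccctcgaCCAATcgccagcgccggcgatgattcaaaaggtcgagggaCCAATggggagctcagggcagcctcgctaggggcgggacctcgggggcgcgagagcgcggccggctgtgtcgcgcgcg

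CCAAT was in a window of 23 of the 26 genes (88.5%), against 41.8% of the tested genes with a window and 41.1% of all genes with one. NF-Y, which binds it, is a known partner of SREBP2. GGGCGG, the core of the SP1 motif, was in 24 of the 26 (92.3%), against 57.5% of the tested genes and 38.2% of all genes with a window. The genes behind these shares were not matched to the 26 by expression level. The sterol regulatory element TCACNCCAC, the longest and rarest of the motifs, was found once, in Hmgcs1, at 137 bases before the start, and 1.42% of the tested genes held it. CACGTG, the E-box, was in 5 of the 26 (19.2%), against 10.2%. Motifs were searched on both strands, windows with several motifs were counted for each, and these shares describe letters in the windows only. Lbr and Ggps1, whose log2 fold changes were positive, also held CCAAT, in 2 and 3 copies, while the upstream one of the Dhcr7 windows shown held neither marked motif.

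Levels of different genes were compared in the authors' FPKM values, which take transcript length into account. Over the 6 samples, Msmo1, an oxidase that starts the removal of methyl groups from the sterol ring, stood far above the rest, with 512 ± 76.3 FPKM (SD, n = 6), above 99.6% of the tested genes. It made up 36.4% ± 0.999 of the summed FPKM of the 20 synthesis genes (the enzymes without Ggps1, plus Erg28) in the vehicle group and 36.3% ± 1.43 in the STZ group (SD, n = 3). Fdps (110.2 ± 7.58), Sqle (92.1 ± 14.1), Fdft1 (90.4 ± 10.6), Sc5d (80.0 ± 16.6) and Hmgcs1 (76.8 ± 19.1) followed in FPKM (SD, n = 6), and from Sqle on, neighbours in this order differed by less than their SDs, while Sqle lay below Fdps, and Fdps below Msmo1, by more than the SD of either gene. At the low end were Lss (5.15 ± 0.919), Mylip (3.72 ± 0.486) and Stard4 (1.81 ± 0.242), whose mean lay above 45.5% of the tested genes. The remaining 22 genes had means from 10.1 to 73.3 FPKM.

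**Figure D1:**
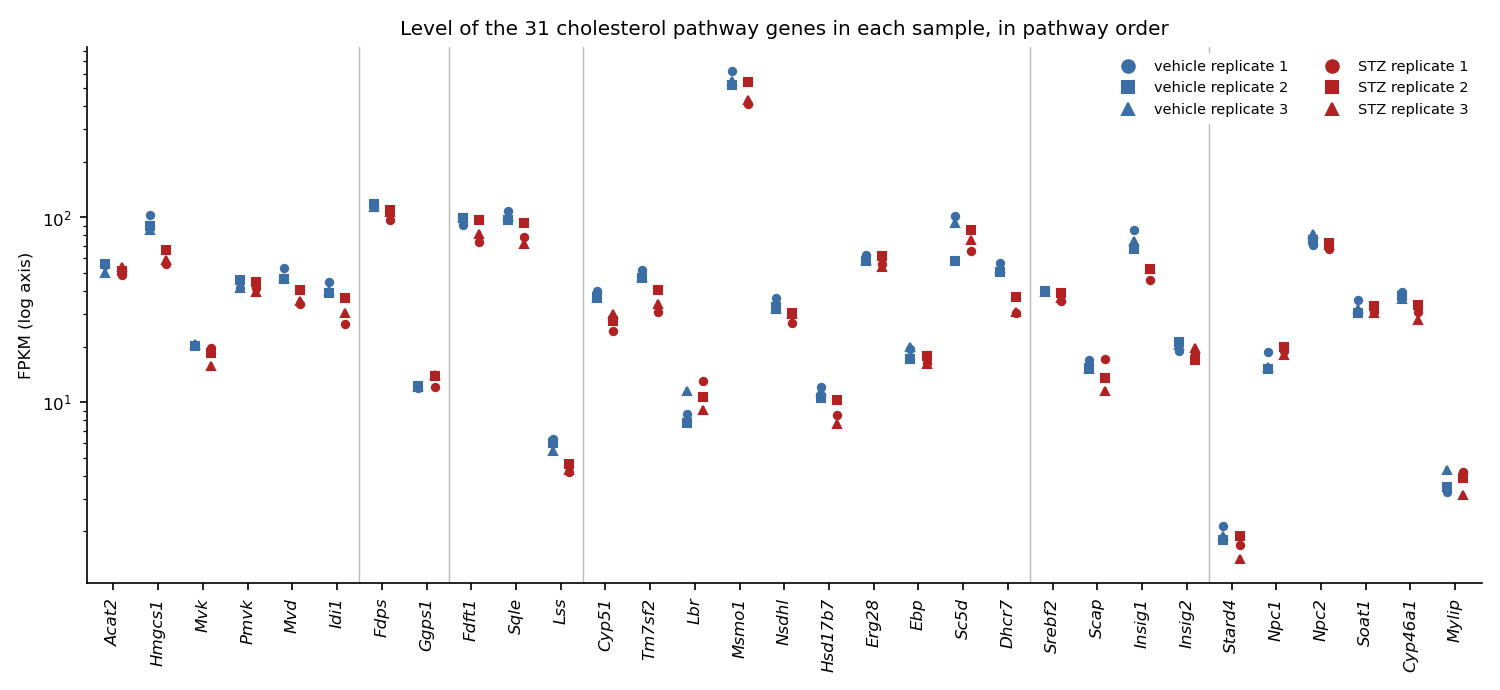
FPKM of each of the 31 genes (x axis, in pathway order, vertical lines between the groups of steps) in each sample on a log axis, vehicle samples in blue and STZ samples in red. Msmo1 sits highest, with a mean of 512 FPKM, and Stard4 lowest, with 1.81 FPKM.

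Differences between the groups were tested on read counts with edgeR's quasi-likelihood test over the 22337 genes counted in every sample. Values per sample below are CPM, counts scaled to library size after TMM normalization, and a log2 fold change is STZ minus vehicle, given ± its standard error. Of the 31 genes, 28 had a negative log2 fold change and 3, Lbr, Npc1 and Ggps1, a positive one. The median log2 fold change was -0.27, from -0.76 for Dhcr7 to 0.17 for Lbr, beside 0.01 over all tested genes and -0.01 over the 5984 tested genes with a mean of at least 10 FPKM. Every STZ sample was below every vehicle sample for 20 of the 31 genes, against 9.85% of all tested genes, and every STZ sample was above for 0, against 8.64%. With the call set at 1.5-fold and an adjusted p of 0.05, edgeR called 0 of the 31, against 0.0134% of all tested genes called lower and 0.00895% higher, and the smallest adjusted p among them was 0.111 (Dhcr7). At an unadjusted p under 0.05, 19 were lower, against 5.65% of all tested genes, and 0 higher, against 5.63%. Among the 5984 tested genes of at least 10 FPKM, a level that 28 of the 31 reached, 645 were lower and 414 higher at that p. Of the same 5984 genes, 881 had every STZ sample below every vehicle sample and 601 had every STZ sample above. DESeq2, the tool of the study's methods, called 3 lower at that adjusted p and fold (Dhcr7, Hmgcs1 and Insig1), against 0.394% of all tested genes, and 0 higher, against 0.654%. Without the fold threshold DESeq2 had 8 lower, against 0.895%, adding Lss, Cyp51, Tm7sf2, Mvd and Hsd17b7.

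**Figure D2:**
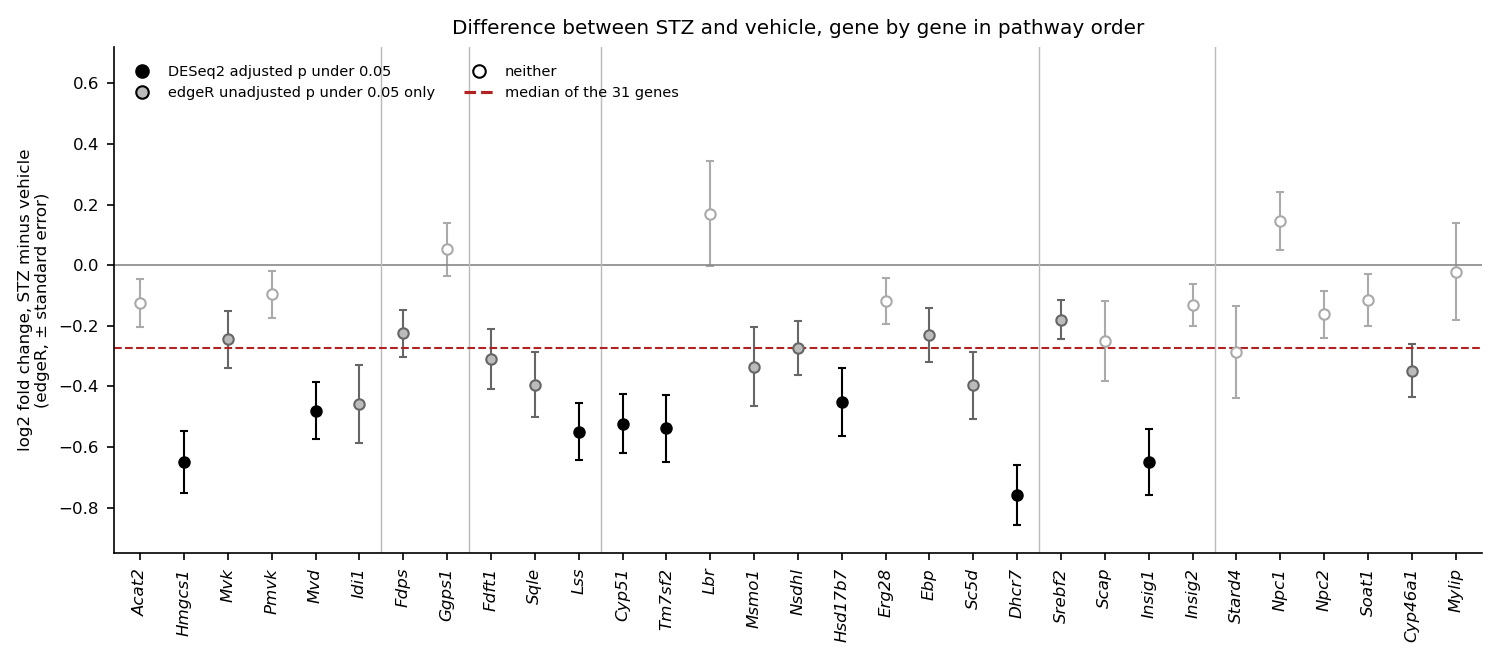
Log2 fold change of each gene between STZ and vehicle from edgeR (y axis, with its standard error), in pathway order. Black points had a DESeq2 adjusted p under 0.05 (8 genes), grey points an unadjusted edgeR p under 0.05 only (11 genes) and white points neither (12 genes), and the dashed line is the median of the 31 genes, -0.27.

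Total counts ranged from 52529048 to 58749115 per sample, so counting error was small for these genes. The 10 astrocyte markers, all above 0 in every sample, summed to 6581 to 7666 FPKM with vehicle and 6958 to 7581 with STZ. At an unadjusted p under 0.05, 2 were lower (Aldh1l1 and Aqp4), against 5.65% of all tested genes, and 1 higher (Gjb6), against 5.63%. Their log2 fold changes were -0.22, -0.48 and 0.27, and Aqp4 had a DESeq2 adjusted p of 0.0169. Of the 10 astrocyte markers, 6 had a negative log2 fold change and 4 a positive one. The 10 oligodendrocyte markers, from a cell type that makes much cholesterol for myelin, summed to 350.3 to 869 FPKM with vehicle and 459.8 to 1270.1 with STZ, and 0 of them passed an unadjusted p of 0.05. The 10 endothelial markers summed to 30.2, 44.9 and 109 FPKM with vehicle and 215, 159 and 115 with STZ, and 8 were higher and 0 lower at that p. The 6 pericyte and smooth muscle markers summed to 22.0 to 28.3 FPKM with vehicle and 37.3 to 48.0 with STZ, with 4 higher. All of these markers were above 0 in every sample. Choroid plexus and ependymal markers, 6 in number, had large sums of 4255 to 12818 FPKM with vehicle and 6935 to 11706 with STZ. Ttr made up most of each sum, at 4141 to 12523 FPKM with vehicle and 6760 to 11471 with STZ. The 9 microglia markers summed to 284 to 409 and 289 to 403 FPKM, and the 3 precursor markers of oligodendrocytes to 0.960 to 1.49 and 1.22 to 1.66.

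The 20 synthesis genes summed to 1648, 1458 and 1514 FPKM with vehicle and 1165, 1428 and 1221 with STZ. The oligodendrocyte sum was highest in vehicle replicate 1, where the synthesis sum was the highest of all, and in STZ replicate 1, where it was the lowest. The part of the endothelial and mural signal in the differences was not tested. In pooled sorted cells, fewer cells of a type and less RNA per cell cannot be told apart.

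**Figure D3:**
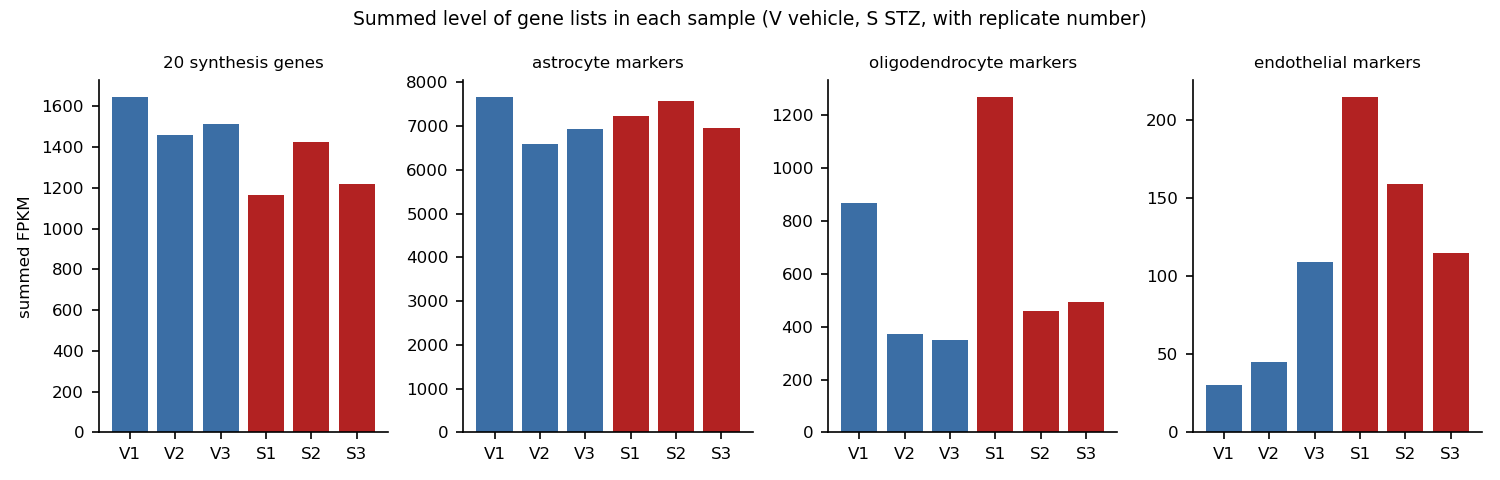
Summed FPKM of the 20 synthesis genes and of the astrocyte, oligodendrocyte and endothelial markers in each sample, vehicle in blue and STZ in red. The synthesis genes sum to between 1458 and 1648 FPKM with vehicle and between 1165 and 1428 with STZ, while the endothelial sum is highest in STZ replicate 1, at 215 FPKM.

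Of the 6 genes of the mevalonate steps, Hmgcs1, Mvd and Idi1 had the most negative differences. Hmgcs1 (NCBI gene 208715, chromosome 13, 119690351 to 119708260) encodes the synthase that makes HMG-CoA. Its CPM was 392, 339 and 322 in vehicle replicates 1, 2 and 3 and 205, 245 and 221 in STZ replicates 1, 2 and 3. The groups were far apart, with a log2 fold change of -0.65 ± 0.104, an edgeR adjusted p of 0.163 and a DESeq2 adjusted p of 8.82e-05. Mvd (NCBI gene 192156, chromosome 8, 122433596 to 122443422), the decarboxylase that makes the isoprene unit, had 102, 89.3 and 89.7 CPM with vehicle and 61.7, 74.1 and 65.8 with STZ. Idi1, the isomerase that turns this unit into its reactive form, had 141, 121 and 124 CPM with vehicle and 78.5, 110.0 and 92.0 with STZ. Both genes were lower in each STZ sample than in any vehicle sample, with log2 fold changes of -0.48 ± 0.0936 and -0.46 ± 0.128. Their DESeq2 adjusted p-values were 0.00925 and 0.0698.

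The kinases of the same stretch differed less. Mvk, which adds the first phosphate to mevalonate, had 38.5, 37.8 and 38.7 CPM with vehicle and 35.3, 33.3 and 28.5 with STZ, groups that did not overlap, and a log2 fold change of -0.24 ± 0.0940. Pmvk, which adds the second phosphate, had 53.5, 59.2 and 53.3 CPM with vehicle and 51.0, 55.0 and 49.4 with STZ, with STZ replicate 2 inside the vehicle range. Acat2, the thiolase that joins acetyl-CoA at the very start, had 126, 126 and 112 with vehicle and 105, 111 and 118 with STZ, with STZ replicate 3 inside the vehicle range. The log2 fold changes of Pmvk and Acat2 were -0.10 ± 0.0778 and -0.12 ± 0.0790. Along the mevalonate steps, 4 of the 6 genes were thus lower at an unadjusted p under 0.05, against 5.65% of all tested genes.

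At farnesyl diphosphate the route divides. Fdps, which makes it, had 159, 164 and 159 CPM with vehicle and 125, 144 and 144 with STZ (log2 fold change -0.22 ± 0.0776). Ggps1, which extends it to geranylgeranyl diphosphate for attachment to proteins and so leaves the sterol route, had 62.4, 64.4 and 61.8 CPM with vehicle and 57.3, 67.9 and 70.2 with STZ (log2 fold change 0.05 ± 0.0888). The Ggps1 groups overlapped, with STZ replicates 2 and 3 above and STZ replicate 1 below all vehicle samples.

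All 3 genes that commit farnesyl diphosphate to sterols had every STZ sample below every vehicle sample, against 9.85% of all tested genes. Fdft1, the squalene synthase, had 369.9, 386 and 372 CPM with vehicle and 273, 345 and 292 with STZ. Sqle, the squalene epoxidase and a known rate-limiting enzyme of the pathway, had 326, 289 and 305 with vehicle and 223, 268 and 209 with STZ. Lss (NCBI gene 16987, chromosome 10, 76531565 to 76557139), which closes the ring, had 43.7, 40.9 and 37.2 with vehicle and 26.6, 30.1 and 26.5 with STZ. Their log2 fold changes were -0.31 ± 0.0979, -0.39 ± 0.106 and -0.55 ± 0.0938, with DESeq2 adjusted p-values of 0.172, 0.0671 and 0.00209. Lss thus combined the lowest level of the synthesis genes with a fitted change of -31.7%.

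Of the 10 genes that turn lanosterol into cholesterol, 9 had a negative log2 fold change. At an unadjusted p under 0.05, 8 were lower, against 5.65% of all tested genes. Dhcr7 (NCBI gene 13360, chromosome 7, 143823167 to 143848410), the reductase that gives cholesterol from 7-dehydrocholesterol, showed the most negative log2 fold change of the 31 genes. Its CPM was 168, 146 and 149.6 with vehicle and 84.9, 102 and 86.6 with STZ, so the highest STZ sample was still well below the lowest vehicle sample. The fitted change was -40.9% (log2 fold change -0.76 ± 0.0982, edgeR adjusted p = 0.111, DESeq2 adjusted p = 7.55e-07), and leaving out single samples moved the log2 value between -0.85 and -0.70. Cyp51 (NCBI gene 13121, chromosome 5, 4080674 to 4104697), the demethylase that acts first on lanosterol, had 190.5, 174 and 173 CPM with vehicle and 109.9, 125 and 138 with STZ. Hsd17b7, a ketoreductase of the later demethylation, had 58.1, 50.3 and 56.0 CPM with vehicle and 37.8, 46.5 and 35.9 with STZ. In both genes the groups were apart, with log2 fold changes of -0.52 ± 0.0974 and -0.45 ± 0.113 and DESeq2 adjusted p-values of 0.00338 and 0.0497.

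The other genes of that later demethylation differed less. Msmo1, the oxidase and the most abundant gene, had 1243, 1038 and 1089.6 CPM with vehicle and 786, 1042 and 846 with STZ, with STZ replicate 2 just above the lowest vehicle sample (log2 fold change -0.33 ± 0.129). Nsdhl, the decarboxylating dehydrogenase that follows, had 89.2, 78.6 and 76.9 with vehicle and 61.8, 70.6 and 70.0 with STZ (log2 fold change -0.27 ± 0.0882). Erg28, a scaffold that holds these enzymes together, had 104, 95.9 and 96.7 with vehicle and 88.0, 98.5 and 86.8 with STZ, groups that overlapped (log2 fold change -0.12 ± 0.0762). Of these, Nsdhl alone had all STZ samples below all vehicle samples. Ebp, the isomerase that moves a double bond of the ring, had 37.0, 32.5 and 37.7 with vehicle and 29.4, 32.3 and 29.7 with STZ, with almost no gap between the groups (log2 fold change -0.23 ± 0.0890). Sc5d, the desaturase just before Dhcr7, had 307, 251 and 263 with vehicle and 184, 229 and 211 with STZ (log2 fold change -0.40 ± 0.111). In FPKM the Sc5d groups overlapped, at 101, 57.9 and 93.5 with vehicle and 66.2, 85.9 and 75.3 with STZ. Vehicle replicate 2 was the lowest vehicle sample in CPM too, but lay further below the others in FPKM. With limma on log2(TPM + 1) the log2 fold change of Sc5d was -0.17 (unadjusted p = 0.508).

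Tm7sf2 and Lbr encode reductases of the same double bond of the ring, and their differences had opposite signs. Tm7sf2 (NCBI gene 73166, chromosome 19, 6062821 to 6067850) had 84.2, 75.6 and 76.4 CPM with vehicle and 47.2, 62.5 and 53.0 with STZ, groups that were apart (log2 fold change -0.54 ± 0.110, DESeq2 adjusted p = 0.00805). Lbr (NCBI gene 98386, chromosome 1, 181815315 to 181842401), which is also a receptor for lamin B in the inner nuclear membrane, had 33.6, 29.9 and 44.2 with vehicle and 47.7, 39.5 and 33.9 with STZ, which overlapped (log2 fold change 0.17 ± 0.173). The size for Lbr rested on single samples, at 0.03 without STZ replicate 1, 0.04 without vehicle replicate 2 and 0.33 without vehicle replicate 3. Within each sample the ratio of Tm7sf2 to Lbr in FPKM was 6.02, 6.07 and 4.15 with vehicle and 2.38, 3.80 and 3.75 with STZ. No STZ sample reached the lowest vehicle sample, and the mean log2 ratio differed by -0.72 (two-sided exact permutation test, p = 0.1, the smallest that 3 samples against 3 allow). This pair of genes was picked after their values were seen.

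**Figure D4:**
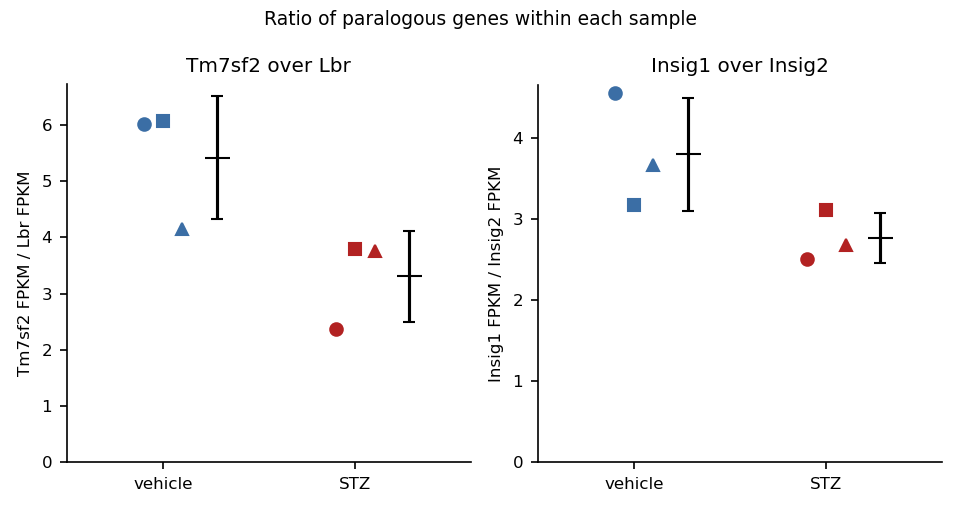
Ratio of the FPKM of Tm7sf2 to that of Lbr (left) and of Insig1 to Insig2 (right) within each sample, with the mean and SD of each group beside the points. Tm7sf2 over Lbr was 5.42 ± 1.10 with vehicle and 3.31 ± 0.809 with STZ, and Insig1 over Insig2 was 3.79 ± 0.699 and 2.77 ± 0.311 (SD, n = 3).

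Among the regulators, Insig1 stood apart. Insig1 (NCBI gene 231070, chromosome 5, 28071412 to 28078662) is itself turned on by SREBP2 and encodes a protein that retains Scap in the endoplasmic reticulum. Its CPM was 248, 194 and 213 with vehicle and 126, 145 and 147 with STZ. The log2 fold change was -0.65 ± 0.109, with an edgeR adjusted p of 0.169 and a DESeq2 adjusted p of 0.000249. The paralog Insig2, which is not a strong SREBP2 target, had 65.8, 68.3 and 66.7 with vehicle and 57.9, 60.4 and 64.9 with STZ (log2 fold change -0.13 ± 0.0689), a smaller gap. The ratio of Insig1 to Insig2 in FPKM was 4.55, 3.17 and 3.66 with vehicle and 2.51, 3.11 and 2.68 with STZ, a difference of -0.45 in the mean log2 ratio (two-sided exact permutation test, p = 0.1, the smallest possible here). The gap between the groups was narrow, since STZ replicate 2 lay just under vehicle replicate 2. This pair, too, was picked after its values were seen.

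Srebf2 (NCBI gene 20788, chromosome 15, 82147269 to 82205379) itself had 224, 220.3 and 222 CPM with vehicle and 188, 205 and 196 with STZ, which left the groups apart although the log2 fold change was only -0.18 ± 0.0652 (edgeR adjusted p = 0.39, DESeq2 adjusted p = 0.384). The vehicle samples lay very close together. Scap had 79.9, 73.6 and 71.4 with vehicle and 75.7, 61.0 and 52.5 with STZ, with STZ replicate 1 inside the vehicle range and a log2 fold change of -0.25 ± 0.131. Without STZ replicate 1 the value for Scap was -0.40, past an unadjusted p of 0.05, and without STZ replicate 3 it was -0.13.

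The genes that move, store and remove cholesterol numbered 6, with a median log2 fold change of -0.14. Cyp46a1, which hydroxylates cholesterol to the form that leaves the brain and is best known from neurons, had 92.6, 87.6 and 83.2 CPM with vehicle and 68.8, 75.4 and 62.7 with STZ. With a log2 fold change of -0.35 ± 0.0868, it was the 1 gene of the 6 lower at an unadjusted p under 0.05. Of all tested genes, 5.65% were lower at that p. The 8 neuron markers summed to between 24.96 and 49.0 FPKM with vehicle and between 38.8 and 54.1 with STZ, and 1 of them was at 0 in a sample. Tubb3 made up the largest part of this sum in every sample. Of the 7 markers tested, 5 had a positive log2 fold change and 2 a negative one, Rbfox3 (-0.43) and Syt1 (-0.68). The part of neuronal RNA in the Cyp46a1 difference was not tested. Npc2, a soluble sterol carrier of the lysosome, had 253, 267 and 287 with vehicle and 228, 248 and 245 with STZ, groups that did not overlap (log2 fold change -0.16 ± 0.0770). Npc1, the membrane protein that takes cholesterol over from Npc2, had 106, 85.3 and 87.9 with vehicle and 102, 108 and 98.9 with STZ, with vehicle replicate 1 inside the STZ range (log2 fold change 0.15 ± 0.0952). The signs of the differences of Npc1 and Npc2 were opposite, and neither passed an unadjusted p of 0.05.

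Soat1, which esterifies cholesterol for storage, had 186, 157 and 166 with vehicle and 151, 166 and 153 with STZ (log2 fold change -0.12 ± 0.0849). Stard4, a cytosolic sterol carrier that SREBP2 is known to control, had 12.5, 10.4 and 10.9 with vehicle and 9.25, 10.5 and 8.0 with STZ (log2 fold change -0.29 ± 0.152). Mylip, a ubiquitin ligase turned on by the sterol sensor LXR that marks lipoprotein receptors for breakdown, had 10.6, 11.2 and 13.8 with vehicle and 13.0, 12.2 and 9.97 with STZ (log2 fold change -0.02 ± 0.160). The groups overlapped for all 3 genes, and the sign for Mylip turned positive without vehicle replicate 3 or without STZ replicate 3.

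The replicates of each group also differed in a shared way. Over the 20 synthesis genes, vehicle replicate 1 was the highest of its group for 14, against 37.5% of all tested genes. STZ replicate 2 was the highest of its group for 15 and the lowest for 0, against 30.2% and 29.3% of all tested genes. STZ replicate 1 was the lowest of its group for 13, against 32.9%. Relative to the vehicle mean, the median of the 20 genes in log2 CPM was 0.09, -0.05 and -0.04 in vehicle replicates 1, 2 and 3 and -0.49, -0.20 and -0.39 in STZ replicates 1, 2 and 3. The genes below the vehicle mean numbered 4, 15 and 16 in the vehicle samples and 19, 19 and 20 in the STZ samples. Level and difference were only weakly related, with a Spearman correlation of -0.05 between mean FPKM and log2 fold change across the 21 genes of synthesis, which share libraries and are not independent.

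**Figure D5:**
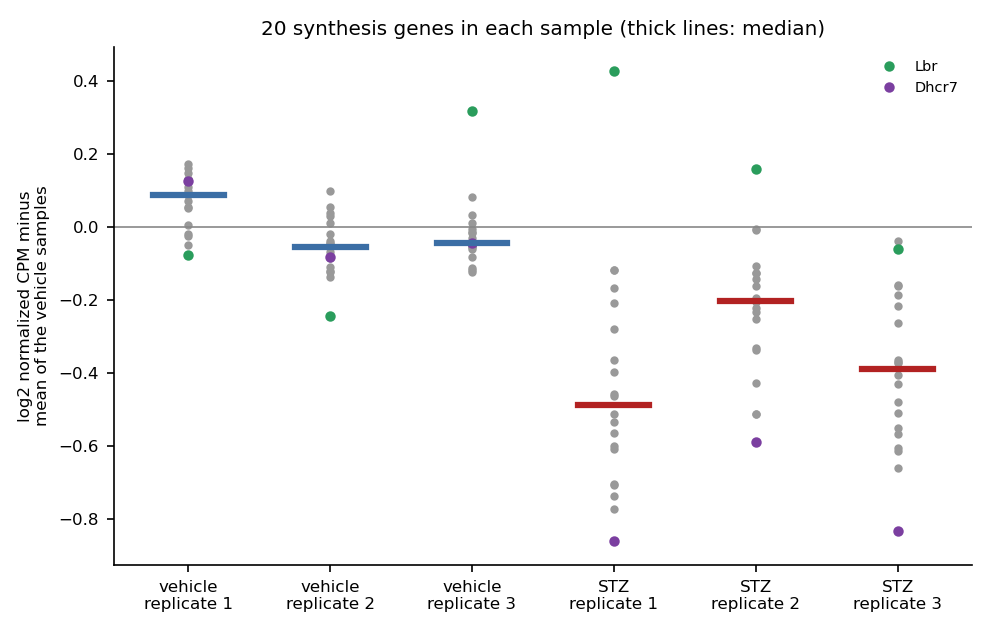
Log2 CPM of the 20 synthesis genes in each sample minus the mean of the vehicle samples (y axis), a point per gene and a thick line for the median. The medians of the STZ samples lie between -0.49 and -0.20 and those of the vehicle samples between -0.05 and 0.09, with Dhcr7 (purple) lowest and Lbr (green) above the median in every STZ sample.

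Genes that feed the pathway or act beside it were read from 4 further lists. After adjustment edgeR called 0 genes in them, against 0.0134% of all tested genes lower and 0.00895% higher. Counts at an unadjusted p under 0.05 stand beside 5.65% of all tested genes lower and 5.63% higher. Among the 5984 tested genes of at least 10 FPKM, 645 were lower and 414 higher at that p. Of 5 genes that supply acetyl-CoA and NADPH, 2 were lower at an unadjusted p under 0.05 and 0 higher. These were Acly, which splits citrate to acetyl-CoA, with 153 ± 10.2 with vehicle and 114 ± 5.63 with STZ (CPM, SD, n = 3), and Acss2, which makes acetyl-CoA from acetate, with 224 ± 15.0 with vehicle and 164 ± 19.0 with STZ (SD, n = 3). Their log2 fold changes were -0.42 and -0.45, with DESeq2 adjusted p-values of 0.00843 and 0.0246. Of 17 genes for SREBP processing and sterol-regulated protein breakdown, 4 were lower and 0 higher, with a median log2 fold change of -0.11. Among them was Syvn1, a ubiquitin ligase of the endoplasmic reticulum, with 81.1 ± 7.26 with vehicle and 62.9 ± 3.81 with STZ (CPM, SD, n = 3) and a log2 fold change of -0.37 (DESeq2 adjusted p = 0.0719).

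Beyond these, 4 of 13 genes that use isoprenoids were lower and 0 higher, with a median of -0.06. Over all tested genes, 5.65% were lower and 5.63% higher at the same unadjusted p. Icmt, which methylates prenylated proteins, Coq2, of ubiquinone synthesis, and Nus1, of dolichol synthesis, had log2 fold changes of -0.31, -0.23 and -0.26. Of 21 tested genes for other sterol transport and turnover, 7 were lower and 1 higher, beside the same shares, with a median of -0.12. Gramd1a, a sterol carrier between membranes, Tmem97, an SREBP2 target that binds sterols, and Osbpl1a, an oxysterol-binding protein, had log2 fold changes of -0.33, -0.28 and -0.20. The higher gene was Ch25h, which makes an oxysterol that blocks SREBP2 processing, at 0.416 ± 0.0636 with vehicle and 0.888 ± 0.547 with STZ (CPM, SD, n = 3), a log2 fold change of 1.09 with an edgeR adjusted p of 0.431. Its level was low, and STZ replicate 1, at 1.52 CPM, stood far above STZ replicates 2 and 3, at 0.618 and 0.528, which were themselves just above the vehicle samples.

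Whether counting used strand is not given in the sources used here, and 10 of the 31 genes overlap another annotated gene, 4 of them a tested one. Beside Tm7sf2, Vps51 had a log2 fold change of -0.11, and beside Fdft1, Ctsb had -0.13. Ttll5, which overlaps Erg28, had -0.46, and Rmc1, which overlaps Npc1, had 0.15. The overlaps of the other 6 genes are with genes that were not tested.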

How the data were processed

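Read counts, FPKM and TPM values came from 3 vehicle and 3 STZ samples of sorted astrocytes, grouped by their titles. Libraries were made from polyA RNA with a SMART-Seq kit, beside which the study's methods name a TruSeq kit. Per the submitters' processing notes, reads were trimmed with Trimmomatic 0.38, aligned to mm10 with HISAT2 2.1.0 and quantified with StringTie 2.1.3b. The deposited counts are whole-number reads per gene without normalization. The FPKM values, made by the authors, are scaled to transcript length and depth, and the deposited TPM values are scaled likewise to a fixed sum per sample. The annotation release and strand setting are not given in the sources used here. The study removed outlier genes by a step it does not describe, which was not repeated.

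Testing covered the 22337 of 45777 genes counted in all samples (minimum 1) and used the two-sided quasi-likelihood test of edgeR 4.0.16 (R 4.3.3, TMM, Benjamini-Hochberg adjustment over all tested genes). A call needed a 1.5-fold change and an adjusted p of 0.05. DESeq2 1.42.0, limma 3.58.1 on TPM, other filters and scalings, a replicate block and leaving out each sample were alternatives, and DESeq2 with the block was added after the data were seen. On simulated counts over 21930 genes, edgeR recovered 157 of 200 genes changed 2-fold, with 13 false calls. The largest change among the 31 genes was smaller, 1.69-fold for Dhcr7, and recovery at such sizes was not tested. All members were named, and from each further list at most 3 genes per direction with the smallest p under 0.05. The members and lists were chosen with earlier results of these data known. No samples of a group were duplicates (chi-square 17.4 to 69.2 per gene), and the labels name no batch. The p-values measure the spread between pools of mice. Some genes of the pathway and of the further lists are not reported here.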

Additional observations from a re-analysis of the deposited data

How the results depend on the processing

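Of the 31 genes, Mylip and Ggps1 changed sign: Mylip was 0.09 without vehicle replicate 3 and 0.08 without STZ replicate 3, with leave-one-out values from -0.103 to 0.0898, and Ggps1 was -0.0058 without STZ replicate 3, with values up to 0.137. Over all genes and settings, 412 values kept their direction and side of an unadjusted p of 0.05, 44 kept the direction but moved above that p, and 6 kept it and moved below. The count of genes called lower after adjustment was 0 with edgeR and 3 with DESeq2, against 0.0134% and 0.394% of all tested genes. It was 3 with DESeq2 and the replicate block. The count lower at an unadjusted p under 0.05 was 19, against 5.65% of all tested genes, and 12 and 11 with limma on log2(TPM + 1) and log2(TPM + 0.1). With a sample left out it was 15 to 18, and the count higher 0 to 1 (Npc1, without vehicle replicate 1). Shares over all tested genes were not counted for limma, for DESeq2 with the block or with a sample left out. With the replicate block, edgeR had 16 lower at an unadjusted p under 0.05, Scap among them, and 0 called. At that p, 910 of the 22337 tested genes were lower with the block. Replicate numbers came from the sample titles, and the deposited column names share no number between the groups. Same-numbered samples correlated at -0.14, -0.38 and -0.28 in their deviations from the group means, so no positive link by number was seen. With 3 samples per group these correlations depend on each other, so they cannot tell whether same-numbered samples were handled together. The median log2 fold change of the 31 genes ran from -0.32 to -0.23 over all settings. Every gene had at least 470 counts in each sample, so counting error was small.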
